A study of Mus musculus with 21 samples.

Results

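Whole left lungs taken 3 h after a fungal extract was aspirated into the trachea were compared with lungs taken 3 h after its vehicle, on 7 of the 21 arrays of the study. The arrays were chosen by their labels alone, 4 of lungs given MACA, a crude antigen preparation of the insect-killing fungus Metarhizium anisopliae, and 3 of lungs given Hank's balanced salt solution (HBSS). All mice were female BALB/c of 8 weeks. The extract was given once, at 20 µg in 50 µl of HBSS, and the vehicle group received 50 µl of HBSS alone. Beside them stand 3 arrays taken 3 h after bovine serum albumin (BSA), a protein given at the same dose and volume, and the arrays of MACA, BSA and HBSS lungs taken at 12 h. Each array is a biological replicate by its labels, which say nothing further of the animals, so every p-value measures the spread between these arrays, whatever its source. The series' text asks how agents of high and of low allergenicity differ.

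Fungal cell walls and proteins are sensed in the lung by airway epithelium, alveolar macrophages and dendritic cells, through Toll-like receptors and C-type lectins. These receptors signal to the transcription factor NF-kB and to the Fos and Jun factors (AP-1), which switch on cytokines, chemokines and adhesion molecules together with the inhibitors that end the signal. The chemokines and adhesion molecules draw neutrophils and monocytes out of the blood, and the cytokines act on neighbouring cells through STAT factors.

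An intensity is the brightness of a gene's brightest probe set after quantile normalization between arrays, in arbitrary units, and 40.9 is taken as the noise level. A log2 fold is a difference between group means of log2(intensity + 16), given with its standard error (SE) as ±, MACA (n = 4) over HBSS (n = 3) unless said otherwise. Where a gene lay under the noise level on every array of one group, the fold is a bound and is written as at least N-fold. Adjusted p-values are limma's, Benjamini-Hochberg adjusted over 12393 genes. The deposited median intensity of the 7 arrays ran from 93 to 185, arrays of one group correlated at 0.981 to 0.989 and arrays of different groups at 0.971 to 0.984. Precision is limited by how many arrays there are. The ratio of the probe sets at the 3' and 5' ends of the Gapdh control, a sign of RNA quality, was 0.957 to 1.08 in MACA and 0.952 to 1.02 in HBSS arrays. A spiked hybridization control divides all 21 arrays into a set of 13 and a set of 8. MACA 3 h replicates 3 and 4 belong to the smaller set, and MACA 3 h replicates 1 and 2 and all HBSS and BSA 3 h arrays to the larger. Lung genes bear out the tissue: the 8 lung identity genes summed to 64700 to 68300 in MACA and 65700 to 66900 in HBSS arrays. Quantile normalization sets the very brightest values alike on every array, so near-equal sums say little of a difference between the groups. Heart muscle genes, from tissue beside the lung, summed to 9870 to 18800 and 10100 to 17200, ranges that overlap.

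At 3 h, 600 genes were higher and 406 lower in MACA than in HBSS lungs, 1006 of 12393. That is 8.12% of the genes tested, 4.84% for higher and 3.28% for lower, and these shares are the background for every count of members below. The rises were the larger: 225 were at least 2-fold, 54 at least 4-fold and 17 at least 8-fold on the fitted scale, while 31 falls were at least 2-fold and 1 was at least 4-fold. The median rise was 1.74-fold and the median fall 1.39-fold. The 4 MACA arrays all lay above, or all below, the 3 HBSS arrays for 21% of all genes, for 579 of the 600 higher genes and for 382 of the 406 lower ones. In whole lung, a fall can mean fewer cells of a type or less RNA per cell, and these cannot be told apart. With the technical set as a term 1123 genes passed, 711 of which were among the 1006. The term rests on MACA 3 h and BSA 12 h, the only groups with arrays of both sets. When the arrays of the smaller set were left out 552 genes passed, 374 of them among the 1006. All 600 and 406 kept their sign there, but for genes whose groups do not overlap this was fixed in advance. The count of genes that passed was 519 without MACA replicate 4, 577 without HBSS replicate 1, 640 without HBSS replicate 2 and 481 without HBSS replicate 3.

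The BSA arrays give a second control. Of the 600 higher genes, 288 were also higher in MACA than in BSA lungs, where 434 genes were higher and 304 lower, 5.95% of all genes. Between BSA and HBSS lungs 22 genes passed, 0.178%, 20 higher and 2 lower. The spread in this test is taken over all 21 arrays, those of 12 h among them, and the test was not run on the 3 h arrays alone. BSA and MACA are set against the same HBSS arrays, so their differences from HBSS share whatever is particular to those arrays, and the direct test of MACA against BSA does not. That test and the test of MACA against HBSS share the MACA arrays, however. Whatever is particular to these enters both, the technical set of MACA replicates 3 and 4 included. For the genes that follow the HBSS and BSA values stand side by side. The count for MACA against BSA was 473 without MACA replicate 2, 459 without MACA replicate 3, 323 without MACA replicate 4, 273 without BSA replicate 1 and 218 without BSA replicate 2. That for BSA against HBSS was 8 without BSA replicate 2, 9 without BSA replicate 3, 7 without HBSS replicate 1 and 9 without HBSS replicate 2.

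Cytokines and chemokines had the highest rises over both controls. Il6 encodes interleukin-6, which drives the acute phase response. Its intensity was 456, 952, 499 and 1450 in the MACA arrays, 20.5, 14.5 and 6.69 in the HBSS arrays and 64.4, 42.3 and 43.9 in the BSA arrays (at least 13.5-fold higher, adjusted p = 0.000105; over BSA log2 3.55 ± 0.57, adjusted p = 0.00206). All 4 MACA arrays stood far above the 6 others, with replicates 2 and 4 the highest. Ccl2, which draws monocytes, was 836, 1940, 1970 and 2630 in MACA, 124, 69.7 and 39.2 in HBSS and 41.9, 45 and 79.9 in BSA arrays (log2 fold 4.30 ± 0.50, adjusted p = 8.2e-05; over BSA log2 4.63). Cxcl10, which interferon induces and which attracts T cells, was 691, 2670, 1070 and 1640, against 104, 57.6 and 34.7 in HBSS and 34, 24.3 and 40.8 in BSA (log2 fold 4.15 ± 0.42, adjusted p = 2.81e-05; over BSA, where every array was under the noise level, at least 23.9-fold). For both, the BSA arrays lay within or below the HBSS range, and MACA replicate 1 was the lowest of its group.

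The neutrophil attractants Cxcl1, Cxcl2 and Cxcl5 rose, 3 of 6 of their list. Cxcl1 read 3190, 4080, 4010 and 5390 in MACA, 454, 369 and 68.6 in HBSS and 329, 218 and 364 in BSA arrays (log2 fold 4.05 ± 0.71, adjusted p = 0.00246). Cxcl2 read 1450, 2220, 2980 and 3420, 268, 174 and 36.5 and 199, 78.2 and 169 in the same order (log2 fold 4.09 ± 0.75, adjusted p = 0.00312). The MACA arrays lay close together and the HBSS arrays did not: HBSS replicate 3 was several times lower than replicates 1 and 2. Cxcl5, made by lung epithelium, was 243, 342, 207 and 346 in MACA and 41.7, 18.2 and 0 in HBSS lungs (log2 fold 3.22 ± 0.59, adjusted p = 0.00312). The platelet chemokines Ppbp (log2 0.42, adjusted p = 0.206) and Pf4 (log2 0.30, 0.209) and the constitutive lung chemokine Cxcl15 (log2 0.12, 0.206) did not pass.

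Of 10 CC chemokines that act on monocytes and macrophages, 7 rose, and 8 were higher than in BSA lungs. After Ccl2 came Ccl3 (log2 fold 3.80 ± 0.77, adjusted p = 0.0063), Ccl7 (at least 6.06-fold higher, adjusted p = 0.000601), Ccl4 (log2 fold 2.64 ± 0.33, adjusted p = 0.000124) and Ccl12 (log2 fold 2.35 ± 0.29, adjusted p = 0.000129). Ccl4 was 224, 519, 556 and 647 in MACA, 74.1, 59.2 and 47.3 in HBSS and 43.5, 34.5 and 39.7 in BSA arrays, with no overlap. Ccl8 (log2 0.06, adjusted p = 0.908) and Ccl6 (log2 -0.04, 0.935) did not pass. Of 4 interferon-inducible CXC chemokines 4 rose, among them Cxcl11 (at least 1.52-fold higher, adjusted p = 0.000909). Cxcl9, the dim one of them, read 7.12, 72.7, 40.8 and 43.5 in MACA and 18, 0 and 0 in HBSS lungs, so that the groups overlapped (adjusted p = 0.0464). Ccl17 and Ccl22, dendritic cell chemokines for helper T cells, were 792, 1020, 990 and 979 and 196, 369, 238 and 330 in MACA lungs, 361, 190 and 206 and 75.1, 65.5 and 49.6 in HBSS lungs, and 123, 65.8 and 187 and 22.4, 29.2 and 59.4 in BSA lungs. Their log2 folds over HBSS were 1.89 and 1.89 (adjusted p = 0.0128 and 0.0134) and over BSA 2.86 and 2.52 (0.0012 and 0.00305). The eotaxin Ccl11 read 76.7, 273, 63.4 and 135 in MACA against 52.9, 59 and 30.3 in HBSS lungs and did not pass (adjusted p = 0.17), and Ccl24, the other eotaxin, was under the noise level in both groups at 3 h. With 1 array left out, the call was lost for Cxcl9 (adjusted p = 0.0958 to 0.17 without MACA replicate 2, 3 or 4 or HBSS replicate 2 or 3), Ccl17 (adjusted p = 0.0546 to 0.0598 without HBSS replicate 2 or 3) and Ccl22 (adjusted p = 0.0637 without HBSS replicate 3). Of the interferon-inducible CXC chemokines, 2 rose without MACA replicate 4 or HBSS replicate 2 or 3.

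**Figure D1:**
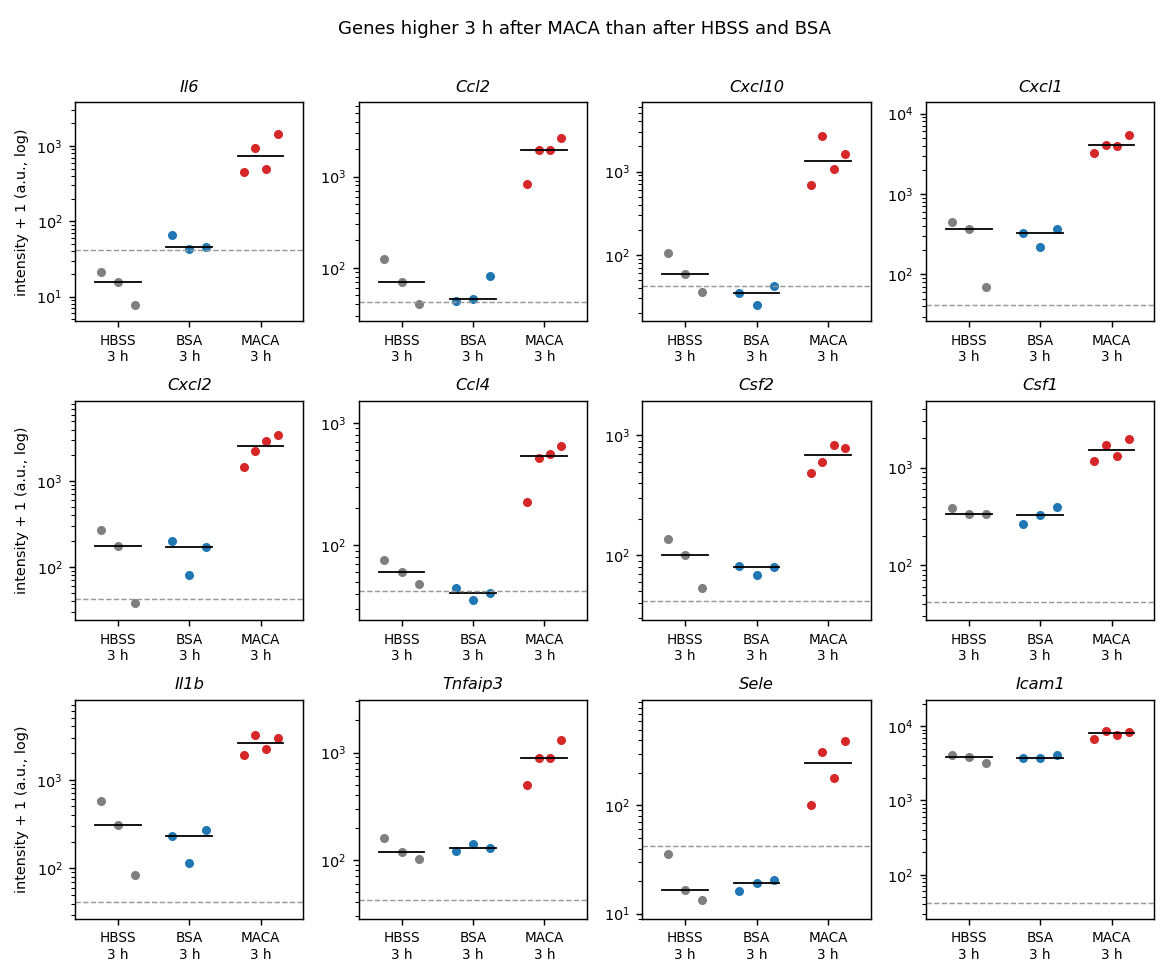
Normalized intensity (arbitrary units, log axis, 1 added) of 12 cytokine, chemokine and adhesion genes on each 3 h array: HBSS (3), BSA (3) and MACA (4). Points are arrays, bars group medians and the dashed line the noise level. In each panel the 4 MACA points lie above all HBSS and BSA points.

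Interleukin-1 family members rose with their own brakes. Il1b was 1890, 3200, 2250 and 2990 in MACA, 574, 304 and 82.9 in HBSS and 233, 114 and 273 in BSA arrays (log2 fold 3.26 ± 0.60, adjusted p = 0.00312). The receptor antagonist Il1rn rose as well (log2 fold 2.77 ± 0.54, adjusted p = 0.00504), as did Il1a (log2 fold 1.14 ± 0.18, adjusted p = 0.00101), 7 of 15 in all. Il18 (log2 -0.21, adjusted p = 0.484) did not pass. The growth factors of myeloid cells rose with them. Csf2, which sustains alveolar macrophages, read 482, 595, 830 and 785 in MACA, 137, 98.8 and 52.6 in HBSS and 80.6, 67.4 and 78.2 in BSA arrays (log2 fold 2.66 ± 0.29, adjusted p = 5.86e-05). Csf1, the macrophage factor, read 1170, 1710, 1310 and 1970, 385, 338 and 336 and 265, 323 and 391 (log2 fold 2.04 ± 0.18, adjusted p = 7.26e-06), and Csf3, the granulocyte factor, was 77.4, 96.1, 76 and 193 in MACA lungs and under the noise level on all 6 other arrays (at least 2.09-fold higher, adjusted p = 0.00105). Of 11 colony-stimulating factors and receptors 6 rose; the receptor Csf1r did not pass (log2 -0.30, adjusted p = 0.298). Tnf was dim even in MACA lungs, 26.6, 96.9, 161 and 201, with HBSS at 0, 22.1 and 0 (at least 2.05-fold higher, adjusted p = 0.00626), and MACA replicate 1 was itself under the noise level. The costimulatory ligand Tnfsf9 (log2 fold 1.80 ± 0.29, adjusted p = 0.00109) and lymphotoxin Ltb (log2 fold 1.54 ± 0.19, adjusted p = 0.000124) rose, 4 of 13 TNF superfamily ligands. Within the interleukin-6 family Lif (at least 2.21-fold higher, adjusted p = 0.00169) and Osmr (log2 fold 0.71 ± 0.12, adjusted p = 0.00136) rose, while the interleukin-6 receptor Il6ra had log2 fold -0.50 (adjusted p = 0.267). Of the colony-stimulating factors and receptors, 3 rose without HBSS replicate 3.

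The cytokines of type 2 immunity were near the limit of detection at this time. Of 16 type 2 cytokines, alarmins and receptors, 9 were under the noise level on every MACA and HBSS array, Il4, Il5 and Il13 among them, and Il4ra alone rose (log2 fold 0.56 ± 0.14, adjusted p = 0.0246). The alarmins Il33 (1930, 2410, 1700 and 1810 in MACA and 1680, 1620 and 1130 in HBSS lungs, adjusted p = 0.268) and Tslp (195, 248, 164 and 241 and 189, 151 and 138, 0.209) did not pass. In the interleukin-12 family 0 of 7 members passed in either direction by limma, 0 were higher and 1 lower at an unadjusted p under 0.05. Il10 and Il17a were under the noise level in both groups. Leaving out 1 array ended the call of Il4ra (adjusted p = 0.0524 to 0.0861 without MACA replicate 2 or 4 or HBSS replicate 1, 2 or 3).

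All 13 measured NF-kB subunits and inhibitors were higher in MACA lungs, 11 of them also over BSA. The median log2 fold of the list was 1.51, beside -0.02 over all genes. Tnfaip3, the ubiquitin-editing enzyme A20 that limits the pathway, was 493, 886, 881 and 1300 in MACA, 157, 118 and 101 in HBSS and 120, 138 and 127 in BSA arrays (log2 fold 2.62 ± 0.24, adjusted p = 1.46e-05). The atypical inhibitor Nfkbiz was 956, 1230, 1260 and 1340, 373, 350 and 225 and 399, 327 and 332 (log2 fold 1.89 ± 0.18, adjusted p = 1.49e-05). The subunits of the alternative pathway, Nfkb2 (log2 fold 1.94 ± 0.22, adjusted p = 7.78e-05) and Relb (log2 fold 1.91 ± 0.17, adjusted p = 9.01e-06) had larger log2 folds than Rela (log2 fold 0.47 ± 0.11, adjusted p = 0.0136), the activating subunit of the classical pathway. Nfkbia, the classical inhibitor, was 8130, 9160, 9310 and 9220 in MACA and 7230, 6970 and 6610 in HBSS lungs (log2 fold 0.37 ± 0.09, adjusted p = 0.0226; adjusted p = 0.16 over BSA), without overlap. Bcl3, a nuclear partner of NF-kB subunits, was 335, 516 and 536 in BSA lungs, between 242, 175 and 160 in HBSS and 873, 1220, 804 and 1500 in MACA lungs (log2 fold 2.39 ± 0.27, adjusted p = 7.78e-05; over BSA log2 1.21, adjusted p = 0.0175). The call depended on 1 array for Rela (adjusted p = 0.0542 to 0.0564 without HBSS replicate 1 or 2) and Nfkbia (adjusted p = 0.0526 to 0.0931 without MACA replicate 3 or 4 or HBSS replicate 2 or 3). Over BSA, it was lost for Bcl3 (adjusted p = 0.0505 to 0.0998 without MACA replicate 4 or BSA replicate 1 or 2).

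The letters of an NF-kB binding motif stand in the promoters of several genes with high folds. The motif, the letters GGG, any 2 bases and then TTTCC, searched on both strands within the 250 bases before each start site of RefSeq (build GRCm38.p6), was found in 1.65% of all 27025 genes with a promoter in the table and 1.78% of the 9887 of them tested here. It was in 21 of 467 higher genes (4.5%), in 15 of 175 higher at least 2-fold (8.57%) and in 7 of 41 higher at least 4-fold (17.1%), while 0 of 320 lower genes held it. The AP-1 motif TGANTCA was in 6.84% of the promoters tested, 10.5% of the higher and 5% of the lower genes, and in 14.9% and 19.5% of those higher at least 2-fold and 4-fold. TATAAA was in 10.7%, 13.5%, 10.3%, 20% and 29.3% in the same order. The share thus climbed with the fold for the AP-1 and TATA letters as well as for those of NF-kB. At 4-fold the AP-1 and TATA shares rest on 8 and 12 of 41 genes. TGACGTCA, the motif called CRE, was in 2.53%, 2.57%, 1.88%, 2.86% and 4.88% in the same order, the last being 2 of 41 genes. GAAA, any 2 bases and GAAA again, the core of the interferon-stimulated response element, was in 3.35%, 5.78%, 2.81%, 8.57% and 7.32%, and CACGTG, the E-box of clock and Myc factors, in 9.19%, 8.99%, 8.44%, 7.43% and 4.88%. The 7 genes higher at least 4-fold that hold the kappa B letters are shown, to set the letters beside the rises, 80 bases each, read 5′ to 3′ on the gene's strand, with the motif (or its reverse complement) in capitals:
Il6: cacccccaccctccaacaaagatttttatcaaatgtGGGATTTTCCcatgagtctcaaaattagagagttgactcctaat
Ccl20: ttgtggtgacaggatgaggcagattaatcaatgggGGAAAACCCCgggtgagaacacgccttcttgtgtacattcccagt
Cxcl2: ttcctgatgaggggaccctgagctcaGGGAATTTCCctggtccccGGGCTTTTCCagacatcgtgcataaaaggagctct
Cxcl1: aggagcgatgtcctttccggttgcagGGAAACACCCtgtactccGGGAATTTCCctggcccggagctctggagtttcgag
Il1rn: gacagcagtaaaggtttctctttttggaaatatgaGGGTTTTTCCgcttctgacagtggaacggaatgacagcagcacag
Tnfaip3: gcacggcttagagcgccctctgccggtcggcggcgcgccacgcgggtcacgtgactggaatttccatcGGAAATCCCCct
Csf1: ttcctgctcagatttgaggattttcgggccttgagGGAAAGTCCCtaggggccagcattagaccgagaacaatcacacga
The windows lie at chr5:30013034-30013113 (plus strand), chr1:83116651-83116730 (plus strand), chr5:90903776-90903855 (plus strand), chr5:90891130-90891209 (plus strand), chr2:24345285-24345364 (plus strand), chr10:19015411-19015490 (minus strand) and chr3:107760579-107760658 (minus strand), each within the 250 bases before the start site. The match nearest to its start site ends close to it in Tnfaip3, where it begins 12 bases before, and the one farthest begins 154 bases before, in Csf1. Cxcl1 and Cxcl2 are neighbours on chromosome 5 and hold 2 matches each, and the other 5 hold 1. A match is a description of the letters and was not tested as a binding site.

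Receptors upstream of NF-kB changed in part. 8 of 29 pattern recognition receptors and co-receptors rose, and 0 fell. Tlr2, which senses lipoproteins and fungal cell walls, was 837, 1500, 1470 and 1300 in MACA, 538, 465 and 249 in HBSS and 452, 240 and 449 in BSA arrays (log2 fold 1.61 ± 0.29, adjusted p = 0.00266). Cd14, the co-receptor of Tlr2 and Tlr4, was 4590, 6590, 6160 and 6240 in MACA against 2450, 1380 and 553 in HBSS lungs (log2 fold 2.23 ± 0.47, adjusted p = 0.0082), with BSA lungs at 2260, 2050 and 2460 (MACA over BSA adjusted p = 0.0983). The C-type lectin Clec4e (Mincle), which binds fungal glycolipids, rose (log2 fold 2.36 ± 0.58, adjusted p = 0.0193). The beta-glucan receptor Clec7a (Dectin-1) had intensities of 1790, 2510, 1650 and 1550 in MACA and 1540, 1170 and 990 in HBSS lungs, did not pass over HBSS (adjusted p = 0.101) and was higher than in BSA lungs (1040, 747 and 1040, log2 0.97, adjusted p = 0.016). Tlr4 did not pass (log2 -0.19, 0.474). Among 26 adaptors and kinases 8 rose, including the adaptor Myd88 (1330, 1740, 1550 and 1820 against 781, 778 and 780, log2 fold 1.02 ± 0.13, adjusted p = 0.000176) and Syk, the kinase of the C-type lectins (log2 fold 0.92 ± 0.16, adjusted p = 0.00252). Single arrays decided the call of Cd14 (adjusted p = 0.057 without HBSS replicate 3) and Clec4e (adjusted p = 0.112 without HBSS replicate 3). Over BSA, it was lost for Clec7a (adjusted p = 0.108 without BSA replicate 2). Of the pattern recognition receptors and co-receptors, 3 rose without HBSS replicate 3, and 2 when the arrays of the smaller technical set were left out.

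In a list of early growth response, Fos, Jun and ATF factors, 14 of 25 rose and 1 fell, with a median log2 fold of 0.99. The list also holds factors outside these families, Myc and Nr4a2 among them, and Nr4a2 is the 1 that fell. Atf3, a stress-induced repressor, was 547, 953, 718 and 1130 in MACA, 154, 166 and 137 in HBSS and 206, 158 and 188 in BSA arrays (log2 fold 2.30 ± 0.32, adjusted p = 0.000324). Junb (log2 fold 2.26 ± 0.26, adjusted p = 8.25e-05), Egr2 (log2 fold 1.76 ± 0.23, adjusted p = 0.000202) and Fos (log2 fold 1.54 ± 0.26, adjusted p = 0.00183) rose. Jun had a smaller rise (log2 fold 0.38 ± 0.09, adjusted p = 0.0169), and Nr4a2, an orphan nuclear receptor, fell (log2 fold -0.83 ± 0.18, adjusted p = 0.0094). Fosl1 and Myc, also members, overlapped between MACA and BSA lungs and are taken up below. Brakes on mRNA and on cytokine signals rose too. Zc3h12a, the RNase regnase-1 that destroys Il6 mRNA, was 261, 342, 373 and 502 in MACA, 86.2, 74.9 and 47.9 in HBSS and 62.6, 43.9 and 60.9 in BSA arrays (log2 fold 2.16 ± 0.21, adjusted p = 1.57e-05), and Zfp36 (tristetraprolin) rose too (log2 fold 1.28 ± 0.18, adjusted p = 0.000379). Of 22 STAT pathway genes 5 rose, among them the inhibitors Socs3 (log2 fold 1.69 ± 0.26, adjusted p = 0.00075), Socs1 (log2 fold 1.39 ± 0.26, adjusted p = 0.00316) and Cish (log2 fold 1.50 ± 0.17, adjusted p = 6.79e-05) and the kinase Pim1 (log2 fold 1.69 ± 0.24, adjusted p = 0.000411). The MAP kinase phosphatase Dusp1 was 5620, 5730, 4700 and 5860 in MACA and 5730, 5890 and 4640 in HBSS lungs (log2 fold 0.02, adjusted p = 0.984), and Spry2, a brake on growth factor signals, fell (log2 fold -0.65 ± 0.16, adjusted p = 0.019). With 1 array left out, the call was lost for Jun (adjusted p = 0.0564 to 0.0781 without MACA replicate 4 or HBSS replicate 1) and Spry2 (adjusted p = 0.0523 to 0.104 without MACA replicate 3 or HBSS replicate 1 or 3).

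Interferon-linked genes were raised in part. 8 of 9 guanylate-binding and IRG GTPases, which attack microbes inside cells, rose, against 5 of 21 antiviral genes and 1 of 11 genes of class I loading. Gbp6 was 227, 362, 316 and 338 in MACA, 83.4, 123 and 82.5 in HBSS and 87.6, 109 and 63.5 in BSA arrays (log2 fold 1.54 ± 0.20, adjusted p = 0.000154). Gbp3 (log2 fold 1.40 ± 0.17, adjusted p = 9.19e-05), Ifi47 (log2 fold 1.29 ± 0.18, adjusted p = 0.000406) and the factor Irf1 (log2 fold 1.22 ± 0.13, adjusted p = 4.73e-05), which activates this class, rose. Among the antiviral genes Ifit1 (log2 fold 1.13 ± 0.23, adjusted p = 0.00623) and Oasl1 (log2 fold 1.30 ± 0.26, adjusted p = 0.00572) rose, and Mx1 (log2 0.46, adjusted p = 0.371) and Oas1a (log2 0.37, 0.16) did not pass. In MHC class II presentation 0 of 8 genes passed in either direction by limma (0 higher and 0 lower at an unadjusted p under 0.05), with log2 folds from -0.07 to 0.23. Of the guanylate-binding and IRG GTPases, 5 rose without HBSS replicate 3. Of the antiviral interferon-stimulated genes, 3 rose without MACA replicate 2 or 4 or HBSS replicate 1 or 3. When the arrays of the smaller technical set were left out, 1 of them rose.

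Genes with which vessels capture leukocytes rose. Sele (E-selectin) was 99.5, 309, 179 and 397 in MACA lungs and 34.6, 15.6 and 12.3 and 15.1, 18.3 and 19.6 in HBSS and BSA lungs (at least 4.12-fold higher, adjusted p = 0.000175). Selp (P-selectin) was 361, 887, 351 and 890, 106, 86.2 and 128 and 91.9, 86.4 and 96 in the same order (log2 fold 2.26 ± 0.35, adjusted p = 0.000785), and Icam1, the ligand of leukocyte integrins, 6750, 8600, 7620 and 8390, 4030, 3800 and 3150 and 3740, 3770 and 4150 (log2 fold 1.10 ± 0.12, adjusted p = 4.17e-05). None of these overlapped between MACA and the other groups, and MACA replicates 2 and 4 were the highest for each selectin. Vcam1 (log2 fold 1.24 ± 0.26, adjusted p = 0.0069) and the prostaglandin synthase Ptgs2 (log2 fold 1.26 ± 0.24, adjusted p = 0.00394) rose, 9 of 20 of the list. Of 28 endothelial identity genes 0 rose and 1 fell, Bmx (log2 fold -0.46 ± 0.13, adjusted p = 0.0355). Their summed intensity was 63800 to 68000 in MACA and 69300 to 71500 in HBSS lungs, without overlap. Adm, a vessel-dilating peptide, was 717, 1180, 993 and 1180 in MACA, 231, 206 and 195 in HBSS and 125, 100 and 201 in BSA arrays (log2 fold 2.16 ± 0.23, adjusted p = 4.15e-05). Rgs16, a brake on chemokine receptor signals, rose (at least 3.74-fold higher, adjusted p = 0.000379), and so did the small GTPase Gem (log2 fold 1.58 ± 0.18, adjusted p = 8.06e-05). Leaving out 1 array ended the call of Bmx (adjusted p = 0.0601 to 0.169 without MACA replicate 2, 3 or 4 or HBSS replicate 2 or 3).

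Markers of neutrophils moved with the chemokines. 9 of 18 rose, all 9 also over BSA. S100a8, a calprotectin subunit of neutrophils, read 2940, 4040, 2920 and 3210 in MACA, 1320, 589 and 358 in HBSS and 595, 408 and 1590 in BSA arrays (log2 fold 2.28 ± 0.51, adjusted p = 0.011). The collagenase Mmp8 read 279, 299, 207 and 218 in MACA, 96.3, 70.1 and 10.2 in HBSS and 50.8, 39.8 and 89.6 in BSA arrays (log2 fold 2.06 ± 0.41, adjusted p = 0.00603), and the receptor Csf3r 611, 669, 602 and 754, 245, 186 and 83.1 and 162, 87.9 and 201 in the same order (log2 fold 1.95 ± 0.42, adjusted p = 0.00919). HBSS replicate 3 was the lowest of its group for each of these genes, and for S100a8 HBSS replicate 1 and BSA replicate 3 were the highest of theirs. The summed intensity of the 18 markers was 9620 to 15100 in MACA and 1760 to 5120 in HBSS lungs, and its part in the rise of Il1b, Tlr2, Clec4e and other genes that neutrophils express was not tested. The granule genes of immature neutrophils did not pass: Mpo and Elane were under the noise level on every array of both groups, and Ngp was 62.3, 66.9, 85.3 and 33.6 in MACA and 64, 80.1 and 37.4 in HBSS lungs (adjusted p = 1). Of 17 dendritic cell markers 8 rose, among them genes of maturation: Cd83 (1380, 2050, 1930 and 2480 in MACA, 417, 231 and 172 in HBSS and 243, 197 and 281 in BSA arrays, log2 fold 2.83 ± 0.22, adjusted p = 3.76e-06), Ccl17, Ccl22, Relb and Cd40 (log2 fold 0.80 ± 0.19, adjusted p = 0.0159). The lineage genes Flt3 (log2 -0.14, 0.779) and Zbtb46 (log2 0.22, 0.705) did not pass. Of 20 macrophage and monocyte markers Cd14 alone rose and Mertk, a receptor for dying cells, fell (log2 fold -0.79 ± 0.18, adjusted p = 0.0136). Of 15 B cell markers 2 rose, Fcer2a, the low-affinity IgE receptor (188, 266, 134 and 177 in MACA and 78, 62.6 and 34.9 in HBSS lungs, log2 fold 1.49 ± 0.30, adjusted p = 0.00643), and Spib (log2 fold 0.95 ± 0.25, adjusted p = 0.0303). Among 23 T and NK cell markers 0 passed in either direction by limma (1 higher and 1 lower at an unadjusted p under 0.05), and among 20 eosinophil, basophil and mast cell markers 0 (1 higher and 1 lower at an unadjusted p under 0.05), 14 of them under the noise level in both groups. The call depended on 1 array for S100a8 (adjusted p = 0.0707 without HBSS replicate 3), Csf3r (adjusted p = 0.0643 without HBSS replicate 3), Cd40 (adjusted p = 0.0501 to 0.0785 without MACA replicate 4 or HBSS replicate 2 or 3) and Mertk (adjusted p = 0.0711 without HBSS replicate 2). The same held for Spib (adjusted p = 0.0594 to 0.139 without MACA replicate 2 or 3 or HBSS replicate 2 or 3). Of the neutrophil markers, 4 rose without HBSS replicate 3, and 1 when the arrays of the smaller technical set were left out. Their median log2 fold was 1.17 with all arrays and 1.22 without that set. Of the dendritic cell markers, 4 rose without HBSS replicate 3. Of the dendritic cell markers, 5 rose without HBSS replicate 2. Of the B cell and plasma cell markers, 1 rose without MACA replicate 2 or 3 or HBSS replicate 2 or 3.

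Acute phase, antimicrobial and matrix genes rose alongside. 12 of 29 of the first kind passed. Saa3, the serum amyloid made in tissue, was 2350, 3520, 2880 and 3560 in MACA, 658, 455 and 123 in HBSS and 266, 248 and 293 in BSA arrays (log2 fold 3.11 ± 0.81, adjusted p = 0.0267). Ptx3, a soluble pattern receptor that binds fungal conidia, was 139, 234, 90.8 and 151 in MACA lungs and under the noise level on all 6 other arrays (at least 2.85-fold higher, adjusted p = 0.000715). The zinc and copper binders Mt1 (6110, 6300, 5100 and 7050 in MACA, 2430, 2240 and 1660 in HBSS, 2980, 3360 and 3480 in BSA, log2 fold 1.54 ± 0.24, adjusted p = 0.000895) and Mt2 (log2 fold 1.88 ± 0.44, adjusted p = 0.0149) rose, with the BSA arrays of Mt1 between the other groups. Lcn2, lipocalin, did not pass (log2 1.29, adjusted p = 0.0631). Acod1, which makes itaconate in activated macrophages, was 232, 715, 162 and 440 in MACA lungs and under the noise level on the 6 others (at least 6.12-fold higher, adjusted p = 0.00488), while Nos2, the inducible nitric oxide synthase, was under the noise level in both groups. Of 27 matrix proteases and inhibitors 7 rose and 1 fell. Adamts4, an aggrecanase, was 316, 707, 349 and 799 in MACA, 27.7, 39.8 and 3.58 in HBSS and 71.5, 55.9 and 91.7 in BSA arrays (at least 9.08-fold higher, adjusted p = 8.35e-05). The hyaluronan synthase Has1 (log2 fold 3.17 ± 0.38, adjusted p = 9.12e-05) and the hyaluronan-binding Tnfaip6 (log2 fold 1.11 ± 0.21, adjusted p = 0.00355) rose. Of 38 fibroblast and matrix proteins 5 rose, with a median log2 fold of 0.10. Ch25h, which makes the antiviral oxysterol 25-hydroxycholesterol, was 1280, 2020, 1360 and 1850 in MACA against 286, 207 and 101 in HBSS lungs (log2 fold 3.02 ± 0.42, adjusted p = 0.000346). Single arrays decided the call of Saa3 (adjusted p = 0.0508 to 0.138 without MACA replicate 2, 3 or 4 or HBSS replicate 2 or 3) and Mt2 (adjusted p = 0.0835 without HBSS replicate 3). Of the serum amyloid, acute phase and antimicrobial genes, 5 rose without HBSS replicate 3, and 4 when the arrays of the smaller technical set were left out. Of the fibroblast and matrix proteins, 3 rose without HBSS replicate 1.

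Another group of genes was higher than in HBSS lungs and did not pass over BSA, with every BSA array above every HBSS array. Most of them did not pass for BSA against HBSS, in a test whose spread is taken over the 12 h arrays as well. Ccl20, an epithelial chemokine for dendritic cells, was 557, 505, 374 and 808 in MACA lungs, 354, 379 and 669 in BSA lungs and 10.4, 15.5 and 0 in HBSS lungs (at least 9.78-fold higher, adjusted p = 0.00462; MACA over BSA log2 0.26, adjusted p = 0.923). Prss22, an epithelial serine protease, was 741, 747, 455 and 552 in MACA, 620, 757 and 458 in BSA and 25.7, 35.2 and 14 in HBSS arrays (at least 11-fold higher, adjusted p = 0.00409). Fosl1, a Fos family factor, was 182, 170, 182 and 238, 174, 261 and 228 and 2.62, 0 and 0 in the same order (at least 3.65-fold higher, adjusted p = 0.00193). For each the MACA and BSA arrays overlapped and all 7 lay above the HBSS arrays. For BSA against HBSS, Fosl1 passed (adjusted p = 0.0209), and Ccl20 (adjusted p = 0.08) and Prss22 (0.0608) did not. The other genes of this kind named here are Sfn (at least 6.56-fold higher, adjusted p = 0.0122), an epithelial 14-3-3 protein, Cldn4, a claudin of tight junctions (log2 fold 2.81 ± 0.64, adjusted p = 0.0134), the amino acid transporters Slc7a5 (log2 fold 2.72 ± 0.63, adjusted p = 0.0145) and Slc7a11 (at least 3.13-fold higher, adjusted p = 0.0117), the stress factor Nupr1 (log2 fold 2.07 ± 0.47, adjusted p = 0.0134) and the keratins Krt8, Krt18 and Krt19 (log2 0.75, 0.72 and 0.79, adjusted p = 0.000202, 0.000421 and 0.000454). In this order, MACA over BSA gave log2 differences of 0.05, 0.31, 0.06, -0.08, -0.28, 0.14, 0.05 and 0.18 with adjusted p from 0.393 to 1. For BSA against HBSS, Krt8 and Krt18 passed (adjusted p = 0.0182 and 0.0144), while Sfn, Cldn4, Slc7a5, Slc7a11, Nupr1 and Krt19 did not (adjusted p = 0.116, 0.171, 0.128, 0.0925, 0.0716 and 0.055). The BSA arrays of Nupr1 (9130, 9870 and 10300) all lay above those of MACA (7820, 7870, 7940 and 8550), those of Krt8 all below, and the other 6 genes overlapped. With 1 array left out, the call was lost for Sfn (adjusted p = 0.0555 without HBSS replicate 2), Slc7a5 (adjusted p = 0.0582 without HBSS replicate 1) and Slc7a11 (adjusted p = 0.0508 without HBSS replicate 3). For BSA against HBSS, it was lost for Fosl1 (adjusted p = 0.077 to 0.124 without BSA replicate 2 or 3 or HBSS replicate 1, 2 or 3), Krt8 (adjusted p = 0.0561 to 0.0898 without BSA replicate 2 or 3 or HBSS replicate 1, 2 or 3) and Krt18 (adjusted p = 0.0691 to 0.0868 without BSA replicate 2 or 3 or HBSS replicate 1 or 2).

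The same genes set vehicle lungs apart from each other at 12 h. Prss22 was 247, 184, 17.9 and 26 in the 4 HBSS 12 h arrays, 281, 301, 32.2 and 20.9 in the 4 BSA 12 h arrays and 9.25, 16.4 and 10.7 in the 3 MACA 12 h arrays. Fosl1 was 63.6, 64.9, 0 and 4.8, 93.5, 97.8, 0 and 14.9 and 3.7, 9.46 and 5.71, and Nupr1 8280, 8900, 2540 and 3950, 10300, 10100, 2540 and 2620 and 2070, 2560 and 2460 in the same order. Replicates 1 and 2 of both 12 h control groups were high and replicates 3 and 4 low, without extract in either. In HBSS 12 h the arrays on both sides of this division lie in the smaller technical set. In BSA 12 h the sets follow the division, with replicates 1 and 2 in the larger and 3 and 4 in the smaller. For 115 of the 600 higher genes at least 2 HBSS 12 h arrays stood at or above the lowest MACA 3 h array, and for 17 of the 288 that were also called over BSA. This was not counted over all genes. The SD of Nupr1 on the log2 scale was 0.09 in both HBSS 3 h and BSA 3 h arrays, 0.87 in HBSS 12 h and 1.14 in BSA 12 h arrays. All of these groups enter the SE of the 3 h differences. The source of the difference among vehicle arrays was not tested.

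**Figure D2:**
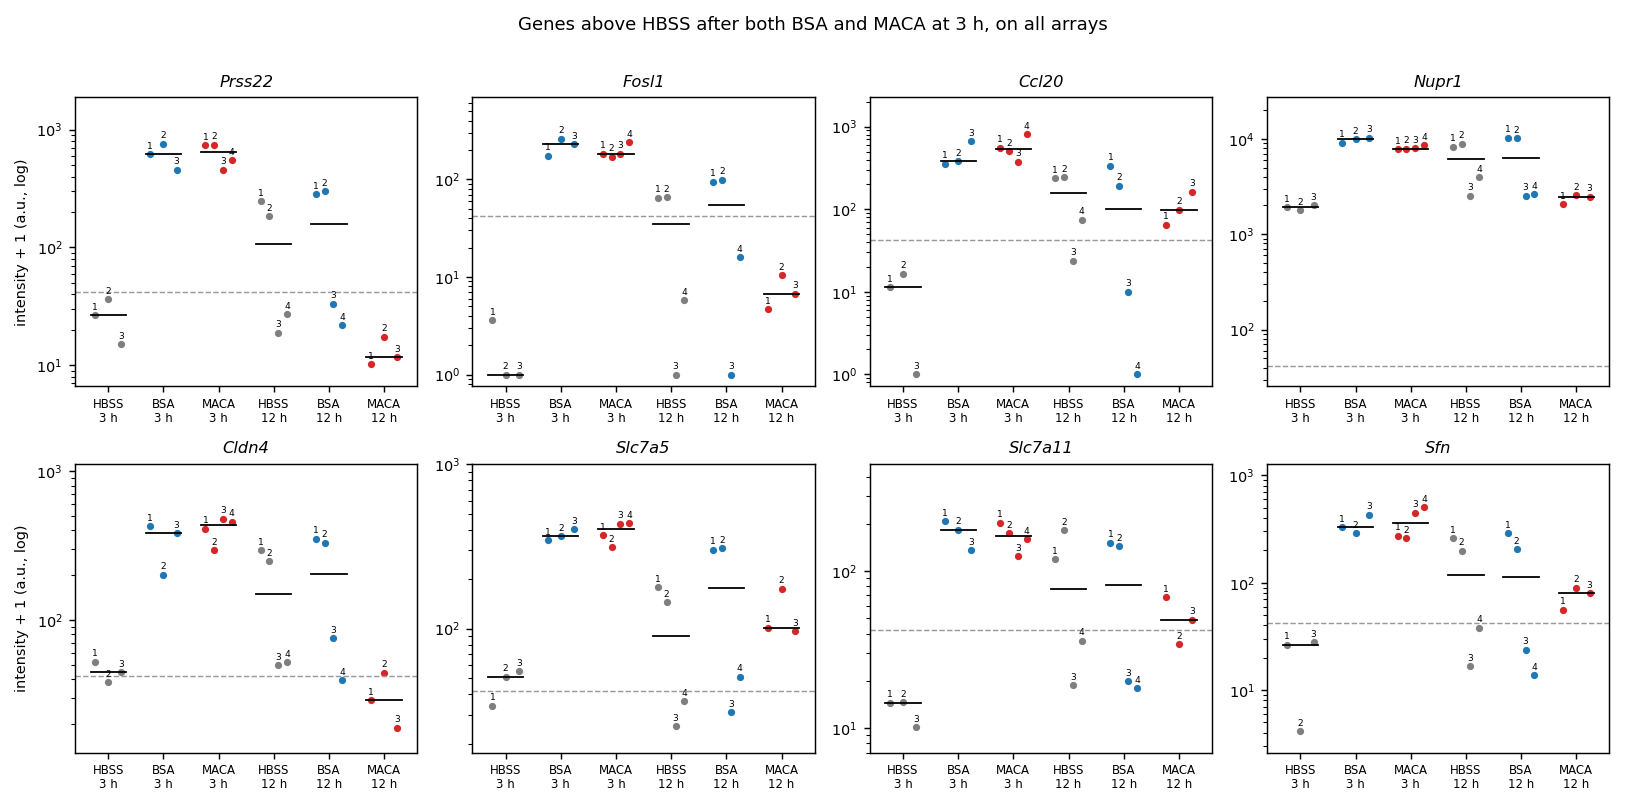
Normalized intensity (arbitrary units, log axis, 1 added) of 8 genes whose MACA and BSA arrays lay above HBSS at 3 h, on each of the 21 arrays by group. Points are arrays, labelled by replicate number, bars are group medians and the dashed line is the noise level. MACA 3 h and BSA 3 h points lie above all HBSS 3 h points, and replicates 1 and 2 of HBSS 12 h and BSA 12 h lie above replicates 3 and 4 in each panel.

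Genes of oxidative stress and of amino acid shortage had medians above HBSS and near 0 against BSA. 8 of 20 metallothionein and Nrf2 target genes rose over HBSS, with a median log2 fold of 0.63, and the median over BSA was 0.07. Srxn1, an antioxidant reductase, was 599, 534, 745 and 862 in MACA, 667, 765 and 697 in BSA and 154, 172 and 199 in HBSS arrays (log2 fold 1.86 ± 0.50, adjusted p = 0.0295), and Hmox1, which breaks down haem, was 571, 485, 445 and 408, 498, 499 and 450 and 186, 190 and 228 in the same order (log2 fold 1.18 ± 0.25, adjusted p = 0.00911). Gclc, of glutathione synthesis, rose (log2 fold 1.21 ± 0.23, adjusted p = 0.00361), and Nqo1 had a log2 fold of 0.56 (adjusted p = 0.211). Of 29 ATF4 and unfolded protein response genes 8 rose (median log2 0.35), and the median over BSA was -0.04. Chac1, a glutathione-degrading enzyme, was 365, 276, 553 and 537 in MACA, 544, 589 and 522 in BSA and 146, 152 and 131 in HBSS arrays (log2 fold 1.45 ± 0.28, adjusted p = 0.00476); replicates 3 and 4 of MACA were above replicates 1 and 2. Ddit3 (CHOP), a stress-induced transcription factor, was 684, 692, 1110 and 1100, 924, 951 and 1020 and 466, 417 and 371 in the same order (log2 fold 1.04 ± 0.22, adjusted p = 0.00771), with the same 2 MACA arrays on top. The endoplasmic reticulum chaperone Hspa5 did not pass (log2 0.54, 0.094). Myc (365, 443, 289 and 468 in MACA, 301, 297 and 287 in BSA, 102, 83.4 and 71.7 in HBSS, log2 fold 1.99 ± 0.41, adjusted p = 0.00643), a growth factor response gene, overlapped between MACA and BSA. Sod2, the mitochondrial superoxide dismutase and an NF-kB target, was 3210, 4420, 4220 and 4260 in MACA, 2300, 2080 and 2540 in BSA and 2680, 2530 and 1900 in HBSS lungs (log2 fold 0.77 ± 0.15, adjusted p = 0.00393; over BSA adjusted p = 0.00453). Leaving out 1 array ended the call of Srxn1 (adjusted p = 0.0635 to 0.0954 without MACA replicate 3 or 4 or HBSS replicate 1, 2 or 3). Of the metallothionein and Nrf2 target genes, 5 rose without HBSS replicate 3.

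**Figure D3:**
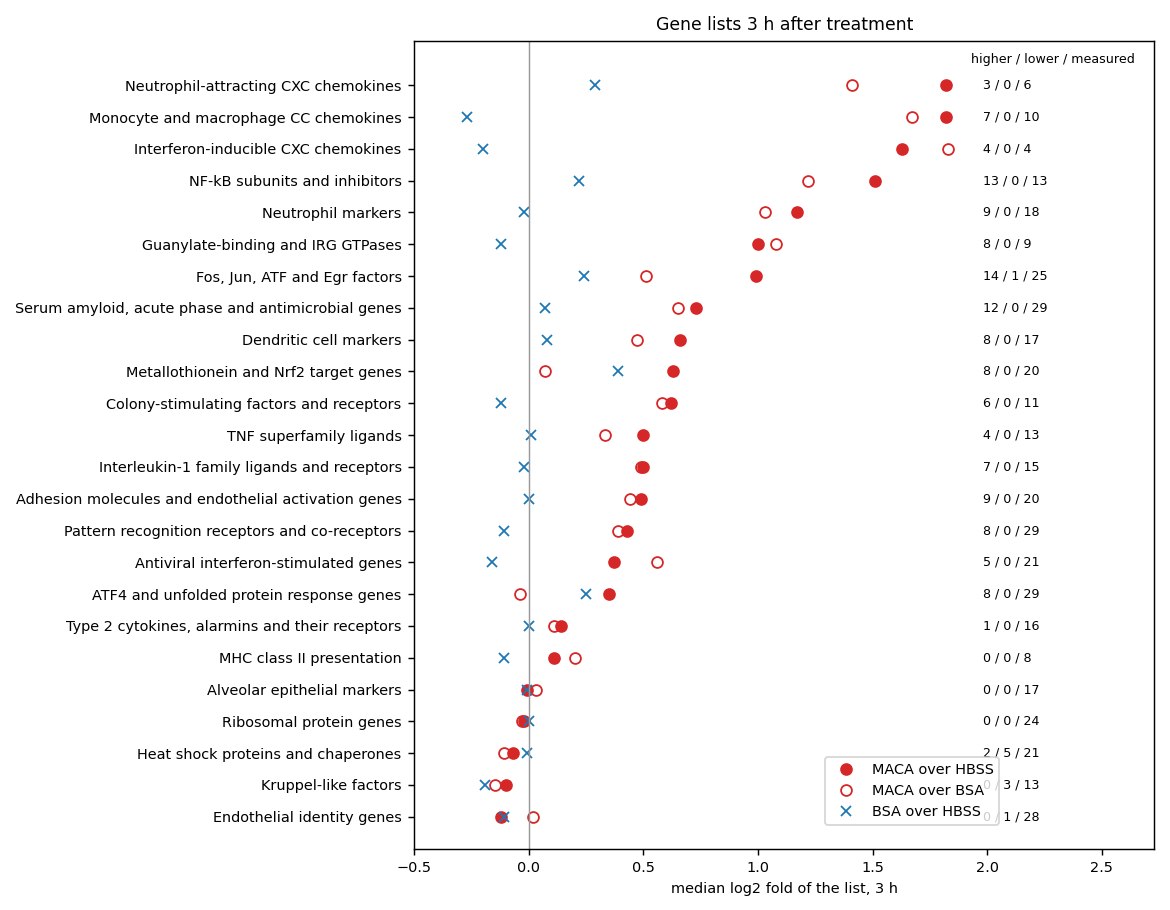
Median log2 fold of the measured members of 24 gene lists at 3 h (axis in log2 units): MACA over HBSS (filled), MACA over BSA (open) and BSA over HBSS (cross); the figures at the right are members higher, lower and measured in MACA over HBSS. The NF-kB median is 1.51 over HBSS and 1.22 over BSA, those of the Nrf2 list are 0.63 and 0.07, and those of the alveolar list -0.01 and 0.03.

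Falls were smaller than rises. Cckar, a cholecystokinin receptor, was 149, 208, 71.5 and 90.4 in MACA, 147, 166 and 105 in BSA and 758, 649 and 868 in HBSS arrays (log2 fold -2.50 ± 0.45, adjusted p = 0.00312), the largest fall. Klf15, a glucocorticoid-induced transcription factor, was 727, 282, 440 and 264, 973, 771 and 619 and 1440, 1470 and 1260 in the same order (log2 fold -1.77 ± 0.29, adjusted p = 0.00123), and the BSA arrays lay below all HBSS arrays and overlapped those of MACA. Hspa1b, a heat-inducible chaperone of the Hsp70 family, was 670, 972, 582 and 628, 1660, 855 and 572 and 2240, 2380 and 1530 (log2 fold -1.51 ± 0.32, adjusted p = 0.0091). The BSA values of Cckar lie within those of MACA, and those of Hspa1b run from the MACA to the HBSS range. Hspa1a, a near-identical neighbour that may share probes with Hspa1b (log2 fold -1.17 ± 0.34, adjusted p = 0.0446), and their co-chaperone Dnajb1 (log2 fold -0.79 ± 0.15, adjusted p = 0.00339) fell, 5 of 21 heat shock genes in all, while the small heat shock protein Hspb1 rose (8550, 7850, 7850 and 8640 in MACA, 7730, 8640 and 8640 in BSA, 4070, 4320 and 5650 in HBSS, log2 fold 0.82 ± 0.13, adjusted p = 0.000734). Alas1, the first enzyme of haem synthesis, was 2150, 1720, 2050 and 1940 in MACA, 2020, 2000 and 1390 in BSA and 3540, 3720 and 3410 in HBSS lungs (log2 fold -0.86 ± 0.21, adjusted p = 0.019). Of the 406 lower genes, 113 were also lower than in BSA lungs. The call depended on 1 array for Hspa1a (adjusted p = 0.0778 to 0.186 without MACA replicate 1, 3 or 4 or HBSS replicate 1 or 2) and Alas1 (adjusted p = 0.0555 to 0.0623 without HBSS replicate 1, 2 or 3). Of the heat shock proteins and chaperones, 2 fell without MACA replicate 3 or 4 or HBSS replicate 1. Of the heat shock proteins and chaperones, 3 fell without MACA replicate 1 or HBSS replicate 2 or 3.

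Transcription factors, epithelial and stromal genes were among the falls, and some of their lists held both rises and falls. Of 24 lung developmental transcription factors 2 rose (8.33%) and 1 fell (4.17%). Of 22 claudin and junction genes 2 rose (9.09%) and 3 fell (13.6%), and of 17 genes of ciliated cells 1 rose (5.88%) and 2 fell (11.8%). Over all genes 4.84% rose and 3.28% fell, so the developmental list and the ciliated rise are near the background. 3 of 13 Kruppel-like factors fell: Klf15, Klf4 (1660, 1420, 698 and 1230 in MACA against 2390, 2380 and 2170 in HBSS lungs, log2 fold -0.94 ± 0.27, adjusted p = 0.0391) and Klf13 (log2 fold -0.51 ± 0.15, adjusted p = 0.0487). Six4, a homeobox factor, was 64.7, 59.9, 54.9 and 61 in MACA, 96.6, 119 and 77.1 in BSA and 155, 157 and 193 in HBSS arrays (log2 fold -1.27 ± 0.17, adjusted p = 0.000202), with the MACA arrays within a narrow range. Tcf21, a factor of lung mesenchyme, was 2580, 2280, 2340 and 2230 against 3800, 3610 and 3590 (log2 fold -0.64 ± 0.10, adjusted p = 0.00105), and Elf5, an epithelial factor, 256, 174, 214 and 193 against 391, 324 and 532 (log2 fold -0.93 ± 0.20, adjusted p = 0.00933). Ccn2, connective tissue growth factor, was 4580, 3670, 2820 and 3130 in MACA against 5590, 5980 and 5070 in HBSS lungs (log2 fold -0.66 ± 0.16, adjusted p = 0.0155). The claudin Cldn8 fell (at least 2.1-fold lower, adjusted p = 0.00388), and among cilia genes Zmynd10, needed to assemble motor complexes, was 0, 31.4, 20.3 and 26.2 in MACA, 42.4, 54.6 and 31.5 in BSA and 77.9, 84.8 and 181 in HBSS arrays (at least 2.16-fold lower, adjusted p = 0.00445), while Foxj1, the master factor of ciliated cells, did not pass (log2 0.18, adjusted p = 0.661). Among 19 circadian clock and clock output genes 3 rose and 1 fell by limma (4 higher and 8 lower at an unadjusted p under 0.05). Their median log2 fold was -0.34. Per3 fell (log2 fold -0.89 ± 0.19, adjusted p = 0.00966), and Nfil3 (log2 fold 1.20 ± 0.21, adjusted p = 0.00246) and Bhlhe40 (log2 fold 0.80 ± 0.17, adjusted p = 0.00984) rose, while Per1 (-0.69, 0.266) and Dbp (-0.61, 0.207) had log2 folds below 0 that did not pass. Usp2, a clock-driven deubiquitinase, was 246, 184, 160 and 127 against 475, 393 and 391 (log2 fold -1.19 ± 0.16, adjusted p = 0.000223). Kcne2, a potassium channel subunit, fell against both controls, 113, 107, 165 and 165 in MACA, 258, 271 and 212 in BSA and 244, 210 and 253 in HBSS lungs (log2 fold -0.74 ± 0.15, adjusted p = 0.00771; over BSA log2 -0.80, adjusted p = 0.00712), as did Acot1, an acyl-CoA thioesterase (log2 fold -0.86 ± 0.14, adjusted p = 0.00137; over BSA log2 -0.95, 0.0011). Single arrays decided the call of Klf4 (adjusted p = 0.0812 to 0.113 without MACA replicate 3 or 4 or HBSS replicate 1, 2 or 3), Klf13 (adjusted p = 0.0665 to 0.173 without MACA replicate 2, 3 or 4 or HBSS replicate 1, 2 or 3), Elf5 (adjusted p = 0.0645 without HBSS replicate 3) and Ccn2 (adjusted p = 0.0518 to 0.0624 without MACA replicate 4 or HBSS replicate 1 or 2). The same held for Bhlhe40 (adjusted p = 0.0667 without HBSS replicate 3). Of the Kruppel-like factors, 1 fell without MACA replicate 3 or 4 or HBSS replicate 1, 2 or 3.

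**Figure D4:**
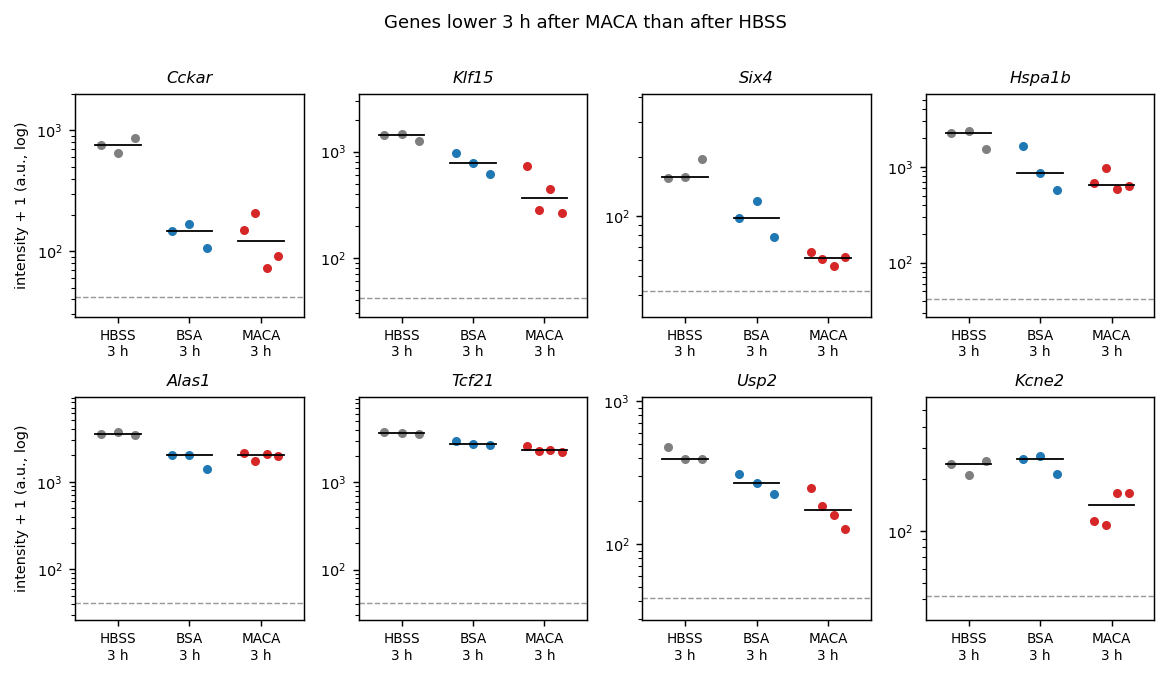
Normalized intensity (arbitrary units, log axis, 1 added) of 8 genes that fell, on each 3 h array: HBSS (3), BSA (3) and MACA (4). Points are arrays, bars group medians and the dashed line the noise level. MACA points lie below all HBSS points in each panel, and BSA points overlap the MACA points for Cckar, Klf15, Hspa1b, Alas1 and Usp2, lie between the groups for Six4 and Tcf21 and lie at the HBSS level for Kcne2.

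Several lists of lung genes had few or no members past the threshold. Of 17 alveolar epithelial markers 0 passed in either direction by limma (2 higher and 3 lower at an unadjusted p under 0.05), with log2 folds from -0.33 to 0.20. Sftpc and Scgb1a1, which encode a surfactant protein and the club cell secretory protein, held the highest values of the array, 13100, 13100, 13800 and 13800 and 13800, 13800, 13100 and 13100 in MACA lungs, which quantile normalization sets alike on every array, so a difference in them could not be seen. Of 24 ribosomal protein genes 0 passed by limma (0 higher and 0 lower at an unadjusted p under 0.05). Outside that list, and named after their values were seen, the ribosomal protein genes Rpl27a (122, 217, 117 and 94.5 in MACA, 410, 359 and 435 in BSA and 266, 220 and 269 in HBSS arrays, log2 fold -0.86 ± 0.22, adjusted p = 0.0235; over BSA log2 -1.50, adjusted p = 0.000993) fell and Rpl12 rose (log2 fold 0.83 ± 0.18, adjusted p = 0.00879). Among 25 detoxification enzymes 1 fell, Gsta3 (log2 fold -0.59 ± 0.14, adjusted p = 0.0184), and the median log2 fold was -0.26. By limma 1 was higher and 11 lower at an unadjusted p under 0.05. Gsta2, an Nrf2 target, was 337, 299, 321 and 334 in MACA, 565, 510 and 454 in BSA and 168, 120 and 129 in HBSS lungs and did not pass (adjusted p = 0.158). Of 22 glucocorticoid-responsive genes 2 rose (Mt1 and Mt2) and 1 fell (Klf15), the median log2 fold was -0.20, and Tsc22d3 (log2 -0.78, 0.106) did not pass. With 1 array left out, the call was lost for Rpl27a (adjusted p = 0.057 to 0.0889 without MACA replicate 3 or 4 or HBSS replicate 1 or 3), Rpl12 (adjusted p = 0.0561 without HBSS replicate 3) and Gsta3 (adjusted p = 0.0611 to 0.0851 without MACA replicate 4 or HBSS replicate 1 or 3). Of the glucocorticoid-responsive genes, 1 rose without HBSS replicate 3.

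Part of the difference was smaller at 12 h and part was larger. Between 3 h and 12 h the difference of MACA from HBSS lungs changed for 3.91% of all genes, and 20.2% of genes differed between MACA and HBSS at 12 h. Of the 600 genes higher at 3 h, 295 were higher at 12 h too, 12 were lower and 293 did not pass there. The difference had shrunk or turned for 81 of them and grown for 5. The 600 genes, and the 406 lower ones below, were chosen by their 3 h difference, which the change subtracts. More shrinking than growing among them was thus partly fixed in advance. Over all genes the change passed above 0 for 256 and below 0 for 228. Cd83 went from a log2 difference of 2.83 at 3 h to 1.12 at 12 h (change -1.71 ± 0.31, adjusted p = 0.0105), Tnfaip3 from 2.62 to 0.95 (0.0169), Gem from 1.58 to -0.48 (0.00146) and Has1 from 3.17 to 0.36 (0.0122). Saa2, another serum amyloid, was 68.3, 122, 79.9 and 113 in MACA and 41.9, 25.2 and 14 in HBSS lungs at 3 h, 196, 248 and 221 and 16.1, 14.6, 22.8 and 11.5 at 12 h, and its difference was larger at 12 h (adjusted p = 0.0455). The eotaxin Ccl24, under the noise level at 3 h, was 76.7, 316 and 204 in the MACA 12 h arrays and 0 in each HBSS 12 h array (change, adjusted p = 0.00973). Ccl2 (4.30 and 3.79, 0.75) and Cxcl10 (4.15 and 3.69, 0.736) did not pass for a change. Genes whose BSA arrays also lay above HBSS at 3 h had large changes, Nupr1 from 2.07 to -1.14 (0.0179) and Cldn4 from 2.81 to -1.63 (0.0168), with HBSS 12 h replicates 1 and 2 high for both. Of the 406 lower genes 121 were lower at both times, and 45 had drawn nearer to, or above, HBSS, among them Cckar (-2.50 to 0.20, 0.0286) and Usp2 (-1.19 to -0.21, 0.0238), whose HBSS arrays read 161, 161, 147 and 188 at 12 h. HBSS 12 h arrays all lie in the smaller technical set, and HBSS 3 h and MACA 12 h arrays all lie in the larger. Between the MACA and HBSS arrays of 12 h, a difference of treatment and a difference of technical set therefore cannot be told apart. With the set as a term 236 genes passed for the change in place of 484, and only 66 genes were in both. Of the genes named here as changed, Gem, Nupr1 and Cldn4 then still passed (adjusted p = 0.00532, 0.0159 and 0.0258), and Cd83, Tnfaip3, Has1, Saa2, Ccl24, Cckar and Usp2 did not (0.0884, 0.168, 0.0577, 0.234, 0.0752, 0.0672 and 0.225). The set term rests on MACA 3 h and BSA 12 h, the only groups with both sets. In BSA 12 h the sets follow the division of replicates 1 and 2 from 3 and 4 in Nupr1 and Cldn4. Whether these changes have a technical source was therefore not tested. The count of genes that changed was, without the set term, 272 without MACA replicate 4, 227 without HBSS replicate 1, 201 without HBSS replicate 3, 161 without MACA 12 h replicate 2 and 261 without HBSS 12 h replicate 2. With 1 array left out, the change no longer passed for Saa2 (adjusted p = 0.059 to 0.117 without MACA replicate 1, 3 or 4 or HBSS replicate 1 or 2 or MACA 12 h replicate 1, 2 or 3 or HBSS 12 h replicate 1, 2 or 4), Cckar (adjusted p = 0.0526 to 0.071 without MACA replicate 3 or 4 or HBSS replicate 1 or 3 or MACA 12 h replicate 1 or 2 or HBSS 12 h replicate 1 or 2) and Usp2 (adjusted p = 0.0691 to 0.0736 without HBSS replicate 1 or MACA 12 h replicate 2).

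**Figure D5:**
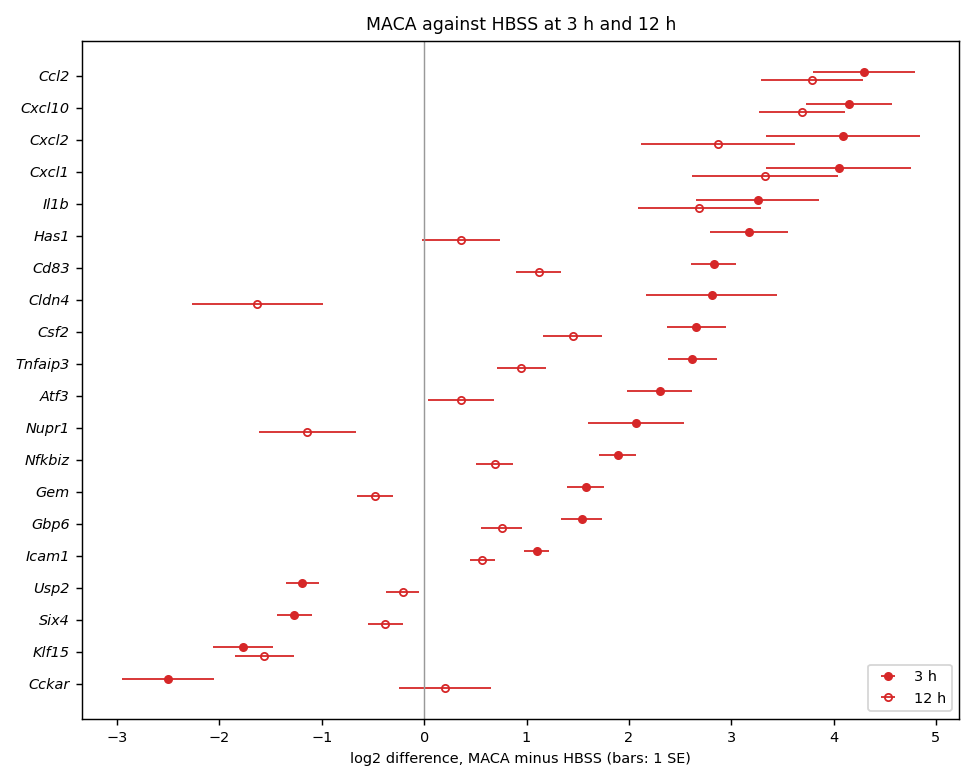
Log2 difference between MACA and HBSS lungs at 3 h (filled) and 12 h (open) for 20 genes, with bars of 1 SE from the fit. Values at 12 h lie nearer 0 for Cd83, Has1 and Gem, and below 0 for Nupr1 and Cldn4. At 12 h all MACA arrays lie in the larger technical set and all HBSS arrays in the smaller.

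The MACA arrays differed among themselves. Among the genes past the threshold, the largest SD over the 4 arrays was that of Inhba, the activin A subunit, at 18.2, 208, 171 and 131 (at least 2.11-fold higher, adjusted p = 0.0139), with MACA replicate 1 under the noise level, followed by Tnf and Acod1. Of the 288 genes higher than in both controls, the highest MACA array was replicate 2 for 131, replicate 4 for 122, replicate 3 for 31 and replicate 1 for 4. MACA replicates 2 and 4 belong to different technical sets. For the same genes the lowest HBSS array was replicate 3 in 184. The highest and lowest arrays were not counted over all genes, so whether this pattern is particular to the 288 was not tested. Other probe sets above the noise level agreed in sign for 284 of 326 beside the higher genes and 198 of 226 beside the lower ones; 125 and 30 passed in the same direction and 1 and 1 in the opposite one. Leaving out 1 array ended the call of Inhba (adjusted p = 0.0524 to 0.0561 without HBSS replicate 1 or 2).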

How the data were processed

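Per the labels' protocols, RNA of whole left lungs (Qiagen RNeasy) was made into biotinylated cRNA and hybridized. The deposited values are linear intensities of 22690 probe sets, 9.92% to 11.2% of them below 0 on the 7 arrays. For scanner software, summary method and scaling, the sources used here name none. The 64 control probe sets were dropped, arrays quantile normalized, negative values set to 0 and log2(intensity + 16) taken. The noise level is the 95th percentile of the size of negative normalized values. Platform annotation gave 20380 probe sets 1 symbol each, and the brightest stood for each of 12393 genes. limma 3.58.1 (R 4.3.3) fitted 6 group means on 21 arrays, with Benjamini-Hochberg adjusted p under 0.05. A fold marked at least sets the brighter group against the noise level. Promoters are RefSeq's (GRCm38.p6), matched by symbol. The script was checked on simulated data.

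The members and gene lists were chosen with earlier results of these data known. Genes named are the largest rises and falls, the most variable, and per list those that changed most and the brightest that did not pass; further list members were named after their values were seen. Alternatives were other scalings, pseudocounts of 64 and 4, a filter on dim genes, all probe sets, the technical set, a replicate block, the 7 arrays alone and leaving out each array. Python 3.11.15 drew the figures.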

Additional observations from a re-analysis of the deposited data

Results flagged for a closer look

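In 7 of 163 named genes above the noise level on at least 1 MACA 3 h array, 1 of the 4 MACA arrays stood far from the other 3, by Dixon's ratio of its gap to the whole range on the log2 scale, whose limit is 0.829. They were Ccl17 (replicate 1 low, 0.838), Il4ra (replicate 3 low, 0.887), Nfkbia (replicate 1 low, 0.88), Nqo1 (replicate 4 high, 0.833), Nupr1 (replicate 4 high, 0.829), Ptgs2 (replicate 4 high, 0.851) and Sod2 (replicate 1 low, 0.855). Chance gives this in about 1 in 20 groups.

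For 31 named genes the difference between MACA and HBSS lungs changed between 3 h and 12 h, by the interaction test of limma. The change, 12 h minus 3 h on the log2 scale, was below 0 for Adm (-1.43), Atf3 (-1.94), Ccl20 (-4.62), Ccrl2 (-1.09), Cd40 (-1.08), Cd83 (-1.71), Chac1 (-1.58), Cish (-1.07), Cldn4 (-4.44), Csf3 (-2.25), Fosl1 (-4.41), Gem (-2.06), Gsta2 (-4.38), Has1 (-2.81), Hspb1 (-0.78), Nfkbiz (-1.19), Nqo1 (-2.15), Nupr1 (-3.21), Prss22 (-5.70), Ptgs2 (-1.28), Rpl12 (-0.95), Sele (-1.86), Srxn1 (-2.84) and Tnfaip3 (-1.67). It was above 0 for Cckar (2.69), Ccl24 (3.80), Klf13 (1.11), Oas1a (0.99), Saa2 (1.49), Six4 (0.89) and Usp2 (0.98). Many of these genes were chosen by their 3 h difference, which the change subtracts. With the technical set as a term 11 of the 31 still passed, Atf3, Ccl20, Cldn4, Fosl1, Gem, Gsta2, Nqo1, Nupr1, Prss22, Rpl12 and Srxn1, with the replicate block 18, and with 1 array left out 14 to 28, the fewest without MACA 12 h replicate 2. Those that passed under every setting tried were Cldn4, Fosl1, Gem, Gsta2, Nqo1, Nupr1 and Prss22. The set term rests on MACA 3 h and BSA 12 h alone, so whether a change that passed with it has a technical source was not tested. For Ccl20, Fosl1, Prss22, Csf3 and Sele the HBSS 3 h arrays, and for Ccl24 all arrays of both groups at 3 h, were under the noise level, so these changes are fitted values and no folds. HBSS 12 h replicates 1 and 2 stood above replicates 3 and 4 for Ccl20 (235, 242, 22.7 and 73.7), Cldn4 (293, 247, 48.7 and 51) and Srxn1 (1030, 1070, 276 and 426), as for Prss22, Fosl1 and Nupr1; the part of these arrays in the changes was not tested.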

How the results depend on the processing

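All 136 of the 136 named genes past the threshold in MACA against HBSS kept their direction under all 16 settings tried, and 57 also stayed past it under each. Where the groups do not overlap, the direction is fixed in advance for settings that only leave arrays out. The 1006 genes became 140 (128 higher and 12 lower, in place of 600 and 406) without scaling between arrays, 532 when the 7 arrays were fitted alone and 552 within the larger technical set, and ran from 481 to 1180 with 1 array left out. Scaling to 1 median gave 555 higher and 500 lower. For MACA against BSA the 738 genes became 44 (41 higher and 3 lower) without scaling and 218 to 922 with 1 array left out, and scaling to 1 median gave 386 higher and 429 lower in place of 434 and 304. For BSA against HBSS the 22 became 0 without scaling, 34 over all probe sets, 54 with the technical set as a term and 7 to 26 with 1 array left out. For the change to 12 h the 484 became 2467 (22 larger and 2445 smaller) without scaling, 236 with the technical set as a term and 161 to 524 with 1 array left out, and scaling to 1 median gave 282 larger and 159 smaller in place of 256 and 228. The cause of these shifts was not tested.

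Replicate numbers come from the labels. The deviations of same-numbered MACA 3 h and HBSS 3 h arrays correlated at 0.07, 0.06 and 0.04, so there was little pairing by number between these groups. At 12 h same-numbered HBSS and BSA arrays did go together for some genes, as given above for Prss22, Fosl1 and Nupr1. With the number as a replicate block, 983, 694, 32 and 305 genes passed in the 4 comparisons above. Differences near the noise level of 40.9 are limited by the signal over background.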

Other observations

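Genes of cell survival and coagulation also differed. Of 33 apoptosis and survival regulators 8 rose and 1 fell. Birc3, an inhibitor of cell death, was 2230, 2770, 2270 and 2600 in MACA, 1260, 942 and 853 in HBSS and 1160, 1060 and 1110 in BSA arrays (log2 fold 1.28 ± 0.12, adjusted p = 1.49e-05), and the inflammatory caspase Casp4 585, 703, 563 and 749, 263, 238 and 195 and 322, 340 and 353 in the same order (log2 fold 1.42 ± 0.16, adjusted p = 8.18e-05). For both genes the MACA arrays lay above all others. Of 28 coagulation genes and protease inhibitors 6 rose, among them Thbs1, thrombospondin (2230, 3320, 2030 and 3190 in MACA, 1130, 966 and 686 in HBSS and 1220, 1380 and 1120 in BSA arrays, log2 fold 1.52 ± 0.23, adjusted p = 0.000601), and the protease inhibitor Serpina3n (log2 fold 1.79 ± 0.33, adjusted p = 0.00312; over BSA adjusted p = 0.0846). Of the coagulation, fibrinolysis and protease inhibitors, 2 rose without HBSS replicate 3. Of the coagulation, fibrinolysis and protease inhibitors, 3 rose without MACA replicate 4.

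Receptors for chemokines and for TNF family ligands rose in part. Of 20 chemokine receptors 3 rose: Ccr1, found on monocytes and neutrophils (427, 540, 237 and 391 in MACA, 136, 115 and 78.8 in HBSS and 109, 89.5 and 129 in BSA arrays, log2 fold 1.69 ± 0.31, adjusted p = 0.00342), Ccrl2 (log2 fold 1.18 ± 0.20, adjusted p = 0.0015) and Ackr1, the chemokine carrier of venules (log2 fold 1.04 ± 0.20, adjusted p = 0.00511). Of 22 TNF receptors 5 rose. Tnfrsf12a, the receptor of TWEAK, was 1470, 1660, 1470 and 1990 in MACA, 596, 538 and 738 in HBSS and 841, 1080 and 1190 in BSA arrays (log2 fold 1.38 ± 0.17, adjusted p = 0.000124), with the BSA arrays between the others. The glucose carrier Slc2a3 rose (log2 fold 0.94 ± 0.12, adjusted p = 0.000202), 1 of 3 in a list of 27 glycolysis and hypoxia genes. Of the TNF receptor superfamily, 3 rose without MACA replicate 4 or HBSS replicate 2 or 3.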
